A study of Homo sapiens with 2 samples.

Results

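AP-1 is a family of transcription factor dimers formed by JUN proteins (JUN, JUNB, JUND) with FOS proteins (FOS, FOSB, FOSL1, FOSL2). Its subunits carry a basic DNA-contacting region next to a leucine zipper, the bZIP fold. JUN, FOS, EGR1 and IER2 are immediate early genes, which growth factors and stress switch on within minutes through factors that are already in the cell. The signal reaches them largely through MAP kinases, and their mRNAs and proteins are usually short-lived. MAFF and MAFG encode small MAF proteins, bZIP partners without an activation domain of their own. In erythroid and megakaryocytic cells small MAFs pair with NFE2, and with BACH1 they form a repressor. The 10 genes described here (JUN, JUNB, JUND, FOS, FOSL1, FOSL2, EGR1, IER2, MAFF and MAFG) were selected on an earlier look at the same libraries, in which JUN was higher with L1. The values of JUN are therefore a description, as are those of the whole set. They are 10 of 61806 genes in the deposited count table, and all 10 reached 10 counts in 1 library or both.

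HEL is a human erythroleukemia line, and the labels give its genotype as WT. The cells were kept for 24 h with L1, a derivative of 3,3′-diindolylmethane, at 1 µM or with 0.5% DMSO, the vehicle. Captured mRNA was sequenced from 1 library per condition, with totals of 32556872 counts for DMSO and 27135647 for L1. No spread between cultures can be estimated from 1 library per condition, so no test was run. No difference given here has a replicate check within these libraries. The intervals are exact 95% intervals (Clopper-Pearson for ratios, Poisson for levels) and cover counting error only. Ratios are log2 of L1 over DMSO after edgeR's TMM scaling, which puts the DMSO library at 1.16 times the effective size of L1. Markers of the erythroid and megakaryocyte lineages were expressed. Their summed levels were 2575 and 2802 CPM (counts scaled to the library total) for 11 erythroid genes in DMSO and L1, and 2413 and 2219 CPM for 8 megakaryocyte genes, of which PF4 was listed at 0. The lists of lymphoid, monocyte, epithelial and fibroblast markers summed to between 0.860 and 14.0 CPM. The erythroid markers lay on both sides of 0 (7 above, 4 below, median log2 ratio 0.15), from -1.25 for the transferrin receptor TFRC to 1.78 for the fetal globin HBG1, which alone went from 173 to 615 CPM. HBG1 has a near-identical copy, HBG2, so the split of reads between them is uncertain. Of the 7 megakaryocyte markers with enough counts, 6 were below 0, with a median of -0.37. Whether these differences have a part in the values below was not tested. In bulk RNA fewer cells of a type and less RNA per cell cannot be told apart.

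Short stretches in front of the start sites of 4 members are shown because these genes lie farthest from a ratio of 1 among the 9 members with a RefSeq promoter window (GRCh38.p14), MAFG being the next. FOSL1 had no window. Each is written 5′ to 3′ along the gene, and the capitals mark a CRE (TGACGTCA, a site of JUN, ATF and CREB dimers), its JUN promoter variant (TGACATCA) or CArG boxes, the sites of serum response factor (SRF).
JUN (chr1:58784096-58784125, minus strand): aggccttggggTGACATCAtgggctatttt
JUND (chr19:18281804-18281833, minus strand): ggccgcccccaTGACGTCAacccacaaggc
MAFF (chr22:38201929-38201958, plus strand): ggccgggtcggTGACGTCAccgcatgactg
EGR1 (chr5:138465359-138465418, plus strand): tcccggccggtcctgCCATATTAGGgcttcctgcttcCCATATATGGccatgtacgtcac
The JUN site differs from the CRE by G5A, counted from 1 at the 5′ end of the CRE. It begins 67 bases before the RefSeq start of JUN, while the CRE begins 200 bases before that of JUND and 54 bases before the first of 2 MAFF starts. GENCODE places the start of JUN, and that of some MAFF transcripts, farther upstream, so both printed stretches also lie inside annotated transcripts. The CArG boxes of EGR1 begin 105 and 83 bases before its start. Searched on both strands over the 250 bases before each start, TGACGTCA occurred in 1.65% of 35116 RefSeq windows, TGACATCA in 2.37% and a CArG box in 1.16%. The consensus AP-1 site TGACTCA, present in 4.20% of windows, was in no window of the 9 members. A match is a run of letters and not a measured binding site.

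Among the 10 genes, JUN alone passed 2-fold, at a log2 ratio of 1 or more with a prior count of 2, and no member was at -1 or below. Over the 18123 genes that reached 10 counts in either library, 7.12% were at 1 or above and 4.83% at -1 or below. EGR1 lay just under the 2-fold line, JUND and MAFF were lower in the L1 library by less than 2-fold, and the other members lay closer to 0. The members' median was 0.09, against -0.004 for all genes kept. The counting interval lay wholly above 0 for JUN, EGR1 and MAFG, and wholly below 0 for JUND and MAFF. With this many reads such an interval is common, since 26.8% of all genes kept lay above 0 by it and 28.6% below. It included 0 for JUNB, FOS, FOSL1, FOSL2 and IER2.

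**Figure D1:**
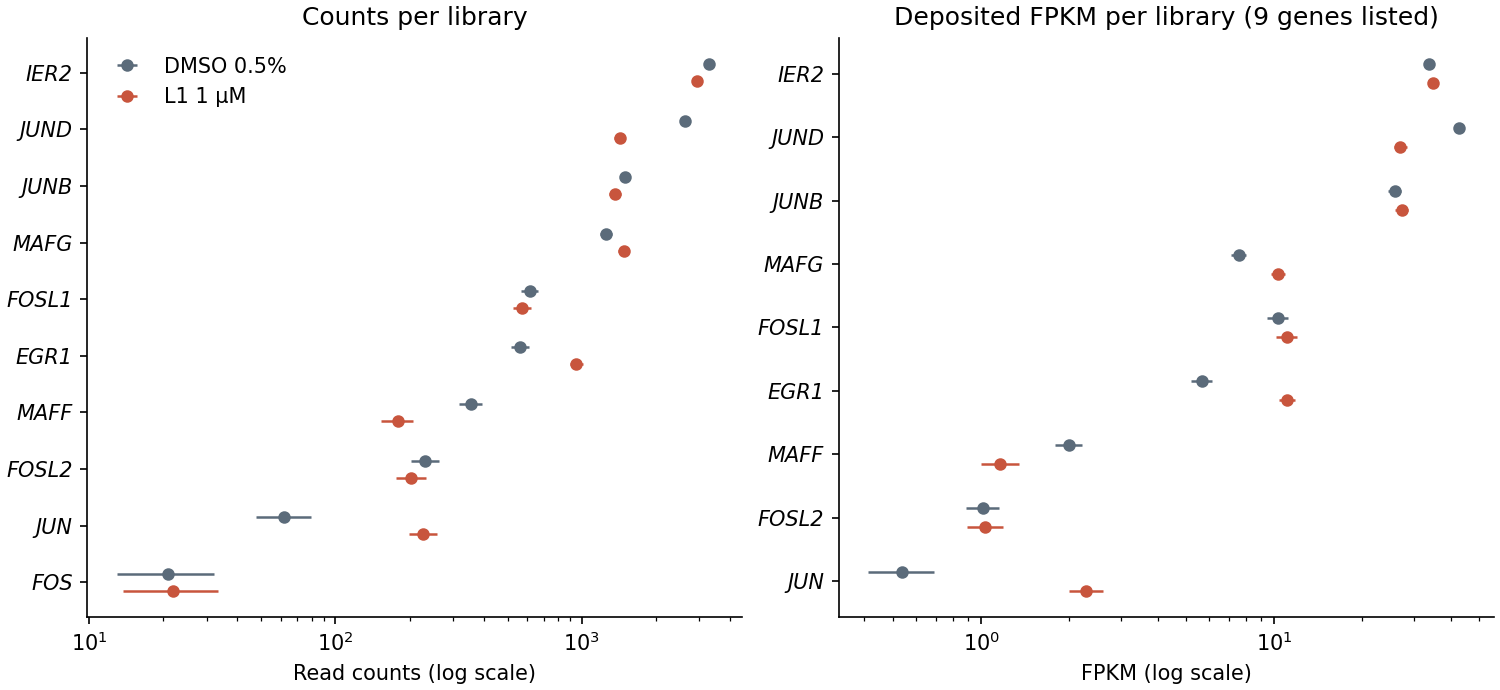
Read counts (left) and deposited FPKM (right) of the members in the DMSO and L1 libraries, on log axes, with exact 95% Poisson intervals for counting error. JUN moves from 62 to 227 counts and EGR1 from 564 to 952, JUND and MAFF lie lower in the L1 library, and FOS, at 21 and 22 counts, has no FPKM value.

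JUN encodes c-Jun, the founding AP-1 subunit. It is a gene of 1 exon on chromosome 1 of GRCh38 (58780788 to 58784327, minus strand, GENCODE release 29), and its identifier is ENSG00000177606. It had 62 counts with DMSO (95% interval 47.5 to 79.5) and 227 with L1 (198 to 259). The intervals of the counts do not overlap, and the L1 library is the smaller of the pair. The set was chosen because JUN was higher with L1, so its values here describe and do not test. Its FPKM was 0.538 in DMSO and 2.28 in L1. The log2 ratio was 2.09 (1.67 to 2.51), a 4.24-fold higher level in L1, and the lower end stayed above 2-fold. By the ratio with the prior count, 2.05, JUN ranked 345th of the 18123 genes kept and 101st of the 12365 genes with at least 100 counts. Of the 1389 genes with a mean scaled count between 128 and 256, the bin that holds JUN, 19 had a higher ratio. No 31-base word of JUN transcripts occurs in a transcript of another gene, and no other annotated gene overlaps it. Within 3000 bases, the noncoding gene LINC01135 on the opposite strand had 13 counts in each library.

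JUNB and JUND were the abundant JUN genes in both libraries. JUNB, a JUN protein that often restrains JUN, had 1500 counts with DMSO and 1366 with L1, and its FPKM was 25.8 and 27.2. Its log2 ratio was 0.08 (-0.03 to 0.18). The gene is 1 exon on chromosome 19 (12791496 to 12793315, plus strand). Exons of HOOK2 on the opposite strand overlap it. The strand setting of the counting is not given in the sources used here, so reads of the pair cannot be told apart in the overlap. Summed with HOOK2, its log2 ratio was 0.11 (0.02 to 0.21).

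JUND, the JUN gene that is usually expressed without a stimulus, had 2620 counts with DMSO and 1426 with L1. Its FPKM was 42.7 with DMSO and 27.0 with L1. The log2 ratio was -0.66 (-0.76 to -0.57), a 1.58-fold lower level in L1. It lies on chromosome 19 from 18279760 to 18281622 (minus strand), with no overlapping gene. Of the 2576 genes with a mean scaled count from 1024 to 2048, 128 had a lower ratio than JUND. JUN and JUND thus lay on opposite sides of 0, with JUNB close to it.

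The make-up of the JUN family differed between the libraries. Per length, in FPKM, JUND was 1.66 times JUNB in DMSO and 0.990 times JUNB in L1. The ratio of JUND to JUNB within a library does not depend on the scaling, and in counts it was lower in L1 by 0.74 on the log2 scale (change -0.74, 95% interval -0.89 to -0.60). JUN made up 0.779% of the summed FPKM of the family in DMSO and 4.05% in L1. JUNB was 47.9 times JUN per length in DMSO and 11.9 times in L1, so JUN remained the smallest of the 3 by FPKM. The summed FPKM of the family was 69.0 in DMSO and 56.5 in L1, and JUND was the only one of the 3 with a lower FPKM in L1.

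**Figure D2:**
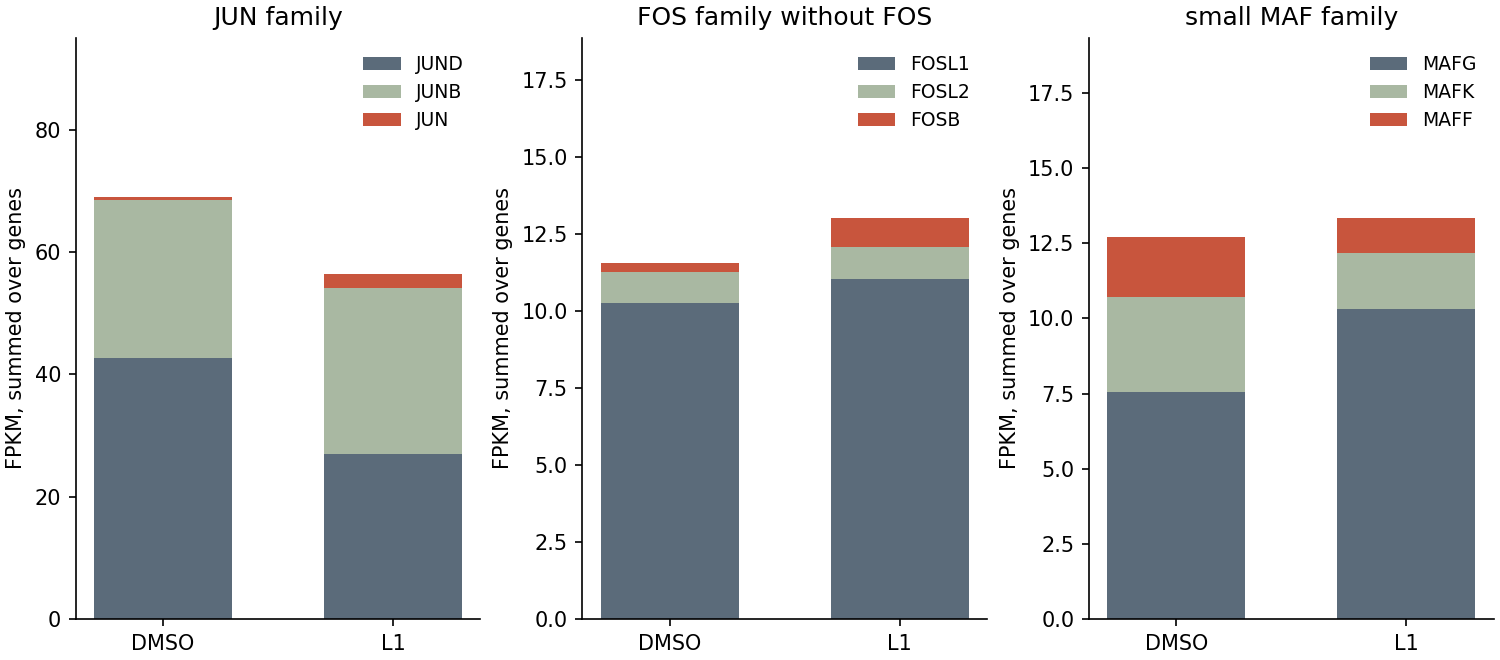
Stacked FPKM of the JUN genes, the FOS genes other than FOS, and the small MAF genes in each library, with 1 library per bar and no replicate error. JUND and JUNB are near equal in L1, FOSL1 holds most of the FOS-family level in both libraries, and MAFG holds a larger part of the small MAF level in L1 (77.3%) than in DMSO (59.4%).

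FOS, the partner of JUN in the classical AP-1 dimer, was counted least of the 10 members. The gene (ENSG00000170345, chromosome 14 from 75278774 to 75282230) had 21 counts with DMSO and 22 with L1, or 0.645 and 0.811 CPM. It has no FPKM value, and every gene that has one reached at least 1.01 CPM in both libraries. The log2 ratio was 0.28, and its interval from -0.65 to 1.21 includes both 0 and a 2-fold higher level, so neither can be told from the other at this depth.

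FOSL1 (FRA-1), a FOS protein without the transactivating part of FOS, carried most of the FOS-family mRNA. It had 616 counts with DMSO and 572 with L1, with an FPKM of 10.3 and 11.1. FOSL1 lies on chromosome 11 from 65892049 to 65900573 (minus strand). The log2 ratio was 0.11 (-0.06 to 0.27). FOSL2 (FRA-2), a second such protein, had 231 and 203 counts and an FPKM of 1.01 and 1.03, for a log2 ratio of 0.03 (-0.25 to 0.30). It lies on chromosome 2 from 28392448 to 28417312. For both genes the interval included 0 and lay within 2-fold on either side.

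FOSB, a FOS protein outside the 10 genes, had the largest ratio among the other AP-1 bZIP genes with at least 100 counts. It had 53 counts with DMSO and 143 with L1, a log2 ratio of 1.65 (1.18 to 2.13). Its share of the summed FPKM of FOSB, FOSL1 and FOSL2 was 2.59% in DMSO and 7.21% in L1. FOSB over FOSL1 within a library, which is free of the scaling, differed by 1.54 on the log2 scale (1.04 to 2.05).

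EGR1, a zinc finger factor with GC-rich sites, was the member with the next largest ratio after JUN. The gene (ENSG00000120738, 2 exons on chromosome 5 from 138465490 to 138469315) had 564 counts with DMSO and 952 with L1. Its FPKM was 5.66 in DMSO and 11.1 in L1, a 1.96-fold higher level in L1. The log2 ratio was 0.97 (0.82 to 1.12), and it passed 2-fold when the libraries were scaled by total counts or upper quartile. In its bin of 2416 genes with a mean scaled count from 512 to 1024, 72 had a higher ratio. EGR2, EGR3 and EGR4, which bind like sites, had at most 9 counts in a library.

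IER2, a small nuclear protein of the immediate early class, was the most abundant member by counts. It had 3289 counts with DMSO and 2931 with L1, and its FPKM was 33.6 and 34.7. The log2 ratio was 0.05 (-0.03 to 0.12). EGR1 over IER2 within a library was higher in L1 by 0.92 on the log2 scale (0.75 to 1.09). IER2 lies on chromosome 19 from 13150415 to 13154908. Exons of an antisense gene overlap it, it shares 28.9% of its 31-base words with other genes, and summed with that gene its log2 ratio was 0.04.

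The small MAF members lay on opposite sides of 0. MAFG (chromosome 17, 81918270 to 81927714, minus strand) had 1259 counts with DMSO and 1481 with L1, with an FPKM of 7.56 and 10.3. Its log2 ratio was 0.45 (0.34 to 0.56), and 0.37 after summing with SIRT7 and an antisense gene whose exons overlap it. MAFF (chromosome 22, 38200767 to 38216511, plus strand) had 355 counts with DMSO and 179 with L1, with an FPKM of 1.99 and 1.16. Its log2 ratio was -0.77 (-1.04 to -0.51), the lowest of the 10 members, and a 1.71-fold lower level in L1. The span of PLA2G6, a phospholipase gene on the opposite strand, overlaps that of MAFF without shared exon bases, and PLA2G6 had 495 and 300 counts (log2 ratio -0.51, -0.72 to -0.30). MAFK, the remaining small MAF, had 451 counts with DMSO and 229 with L1, a log2 ratio of -0.76 (-1.001 to -0.53), which overlaps that of MAFF.

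Within a library, MAFF over MAFG was lower in L1 by 1.22 on the log2 scale (change -1.22, 95% interval -1.51 to -0.94), and MAFK over MAFG by 1.21 (change -1.21, -1.47 to -0.95). MAFK over MAFF differed by 0.01 (-0.35 to 0.37). MAFG held 59.4% of the summed small MAF FPKM in DMSO and 77.3% in L1, while the sum itself was 12.7 and 13.3. Relative to the ratio of MAFG, those of MAFF and MAFK were thus both lower and close to each other.

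The order of the members by FPKM in DMSO was JUND, IER2, JUNB, FOSL1, MAFG, EGR1, MAFF, FOSL2 and JUN, and each differed from the next beyond counting error. In L1 the order was IER2, JUNB, JUND, EGR1, FOSL1, MAFG, JUN, MAFF and FOSL2. There the intervals of the ratio of neighbours included 1 for JUNB and JUND, EGR1 and FOSL1, FOSL1 and MAFG, and MAFF and FOSL2. JUN was the lowest of the 9 in DMSO, at percentile 7.07 of the 13924 genes with an FPKM value, and at percentile 29.8 in L1. JUND was at percentile 93.0 in DMSO and 88.0 in L1.

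**Figure D3:**
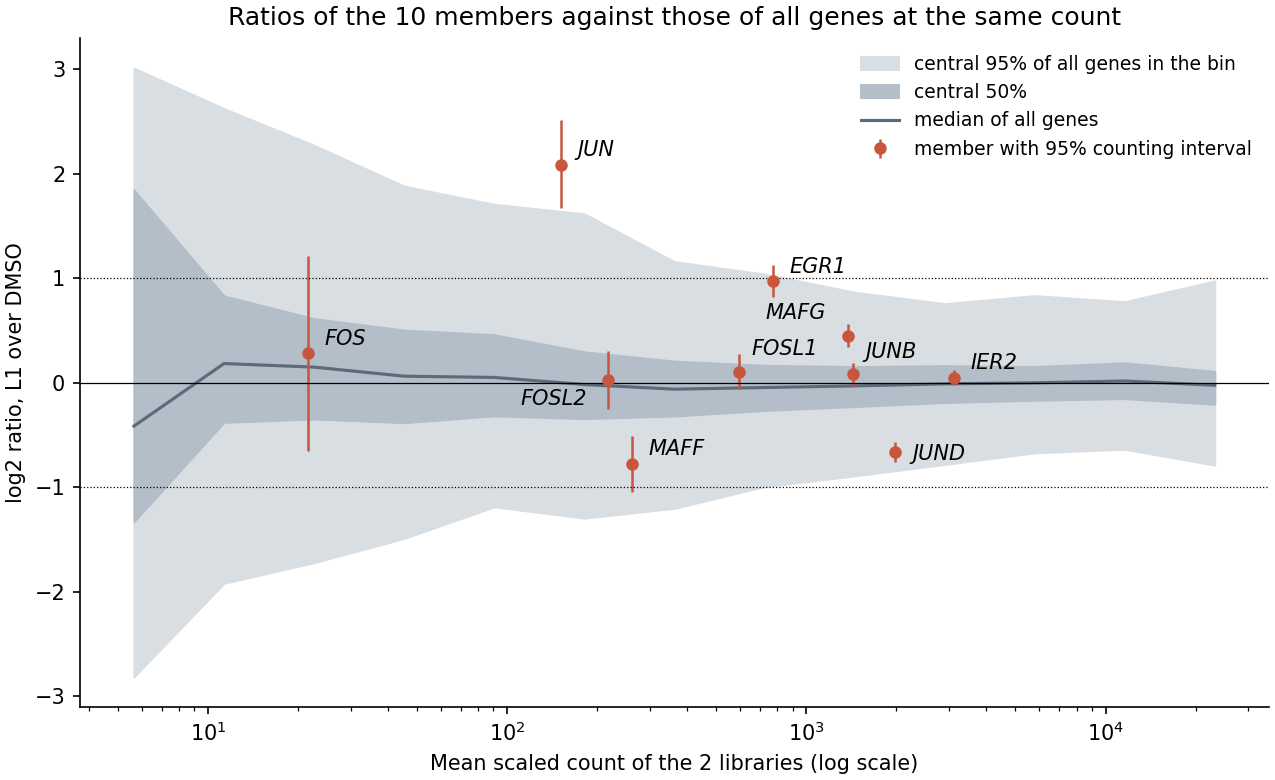
Log2 ratio of L1 over DMSO against mean scaled count (log axis) for the 10 members, without a prior count and with 95% counting intervals, over the central 95% and 50% of all genes in 2-fold bins of count (prior count of 2, bins of at least 100 genes). JUN at 2.09 lies above the central 95% of genes at its level, EGR1 at 0.97 lies near its upper edge, and JUND and MAFF lie in the lower part.

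Other AP-1 bZIP genes lay on both sides of 0. Of the 9 listed, 2 were at least 2-fold higher and none 2-fold lower, beside 7.12% and 4.83% of all genes kept. Those higher were FOSB and BATF2, a BATF protein with only 6 and 14 counts and an interval that included 0. JDP2, a repressor that binds AP-1 sites, had 583 counts with DMSO and 305 with L1 (log2 ratio -0.72, -0.93 to -0.52), and ATF7, a partner of JUN proteins, had 1836 and 1196 (-0.41, -0.51 to -0.30). ATF3, a stress-induced partner of JUN, had 118 counts with DMSO and 94 with L1, and its interval included 0. The median over the list was -0.11.

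Among 11 other MAF genes and their partners, 8 had enough counts. Of these, none was 2-fold higher and 1 was 2-fold lower, beside 7.12% and 4.83% of all genes kept. That gene was MAFA, a large MAF known from pancreatic beta cells, with 158 counts with DMSO and 49 with L1 (log2 ratio -1.48, -1.97 to -1.01). NFE2, the erythroid partner of small MAFs, had 3272 counts with DMSO and 3844 with L1 and a log2 ratio of 0.45 (0.38 to 0.51). NFE2L2 (NRF2), which pairs with small MAFs at antioxidant genes, had 1368 and 1687 counts and a log2 ratio of 0.52 (0.41 to 0.62). BACH1, the repressing partner, had a log2 ratio of 0.20 (0.14 to 0.26), and NFE2L1 one of -0.33 (-0.39 to -0.26). The median of this list was -0.16.

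Of 32 other immediate early genes, 23 had enough counts, and their median was 0.26. In this list 3 were at least 2-fold higher, or 3 of 23 beside the 7.12% of all genes. None was 2-fold lower, beside 4.83% of all genes. MYC, a growth-promoting factor, had 724 counts with DMSO and 1527 with L1 (log2 ratio 1.29, 1.16 to 1.42). SGK1, a serum-induced kinase, had 27 and 93 counts (1.997, 1.37 to 2.67). GADD45B, a stress gene that acts on MAP kinase signalling, had 11 and 80 counts (3.08, 2.16 to 4.13). ZFP36L1, which promotes decay of mRNAs with AU-rich elements, had 1881 counts with DMSO and 877 with L1 (-0.89, -1.01 to -0.77). IER3, a regulator of cell survival, had 67 and 101 counts (0.81, 0.35 to 1.27). KLF2, KLF4 and RHOB were listed at 0 in both libraries. Over the list, 13 counting intervals lay above 0, 4 below, and 6 included it. Among all genes kept, 26.8% lay above 0 by this interval and 28.6% below.

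The MAP kinases and SRF factors upstream of these genes had a median near 0, at -0.08. Of 29 listed, 28 had enough counts. Among them none was 2-fold higher and 1 was 2-fold lower, beside 7.12% and 4.83% of all genes kept. That gene was MAPK10 (JNK3), with 65 counts with DMSO and 15 with L1 (log2 ratio -1.90, -2.82 to -1.08). MAPK8 (JNK1), whose product phosphorylates JUN, had a log2 ratio of -0.34 (-0.46 to -0.22), and MAPK9 (JNK2) one of -0.10 (-0.20 to 0.01). SRF itself had 3526 and 2999 counts and a log2 ratio of -0.02 (-0.09 to 0.05). MAPK14 (p38 alpha) was at 0.48 (0.37 to 0.58), and RPS6KA5 (MSK1), a histone kinase at immediate early genes, at -0.41 (-0.58 to -0.24). Over the list, 3 counting intervals lay above 0 and 11 below, beside 26.8% and 28.6% of all genes kept. These are mRNA levels, and kinase activity was not measured.

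Factors of turnover and repression, a list that shares ZFP36 and ZFP36L1 with the immediate early genes, had a median of -0.07 over 14 genes. No gene of this list was past 2-fold, beside 7.12% higher and 4.83% lower of all genes kept. FBXW7, a ubiquitin ligase subunit for JUN, had a log2 ratio of 0.08 (-0.09 to 0.26), and COP1, another JUN ligase, one of -0.04 (-0.16 to 0.07). ITCH, a ligase for JUN and JUNB, was at 0.47 (0.32 to 0.62). NAB1, a corepressor of EGR proteins, was at -0.42 (-0.51 to -0.33), and NAB2 at -0.28 (-0.51 to -0.06).

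Of 24 genes known for AP-1 sites, 14 had enough counts. Among these 14, none was 2-fold lower, beside 4.83% of all genes kept. Only 1 was 2-fold higher, which is near the 7.12% of all genes kept. The gene was CXCL8, the neutrophil chemokine IL-8, with 19 counts with DMSO and 128 with L1 (log2 ratio 2.97, 2.26 to 3.74). CCND1, the G1 cyclin D1, had 2719 counts with DMSO and 1204 with L1 (-0.96, -1.06 to -0.86). VIM, the intermediate filament vimentin, had 6220 and 3191 counts (-0.75, -0.81 to -0.69). The list median was 0.03, and 7 genes lay on each side of 0. The collagenase and stromelysin genes MMP1, MMP3 and MMP10 were listed at 0 in both libraries.

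**Figure D4:**
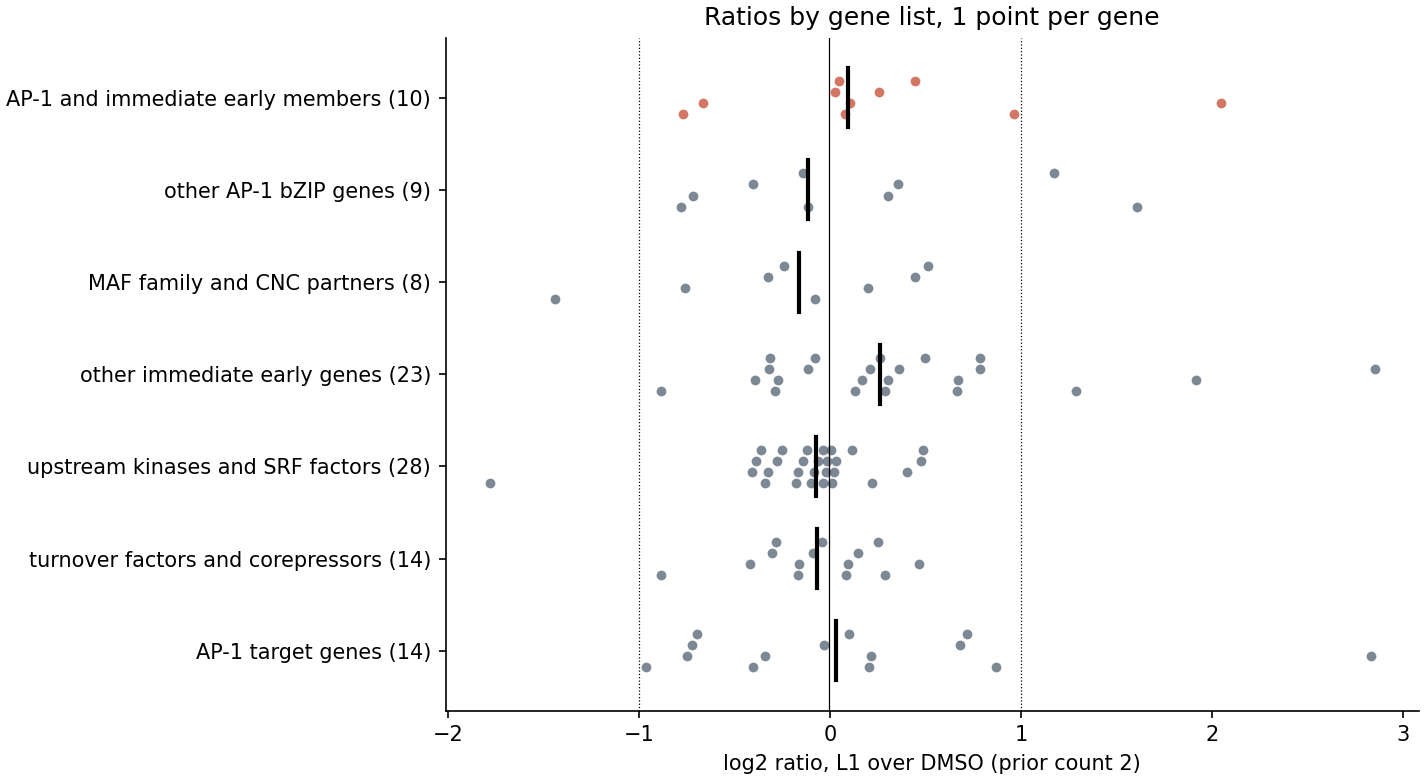
Log2 ratio of L1 over DMSO (prior count of 2) for each gene with at least 10 counts, by gene list, with thick bars at list medians, dotted lines at 2-fold and a thin line at the median of all genes. The members run from -0.77 (MAFF) to 2.05 (JUN), and the kinase and SRF list is narrow around -0.08 apart from MAPK10.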

How the data were processed

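The submitters' processing notes name fastp 2.0, HISAT2 2.1.0, StringTie and the hg38 build. The annotation, the counting program and its use of strand are not given in the sources used here. The authors deposited raw read counts per Ensembl gene without normalization. They also deposited FPKM values, scaled for gene length and library size, for 13924 genes (1 stray line was left out), which carry the library ratio of 1.16 that TMM gives.

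TMM factors came from edgeR 4.0.16 and size factors from DESeq2 1.42.0 (R 4.3.3). All other steps ran in Python 3.11.15 (scipy 1.17.1, pandas 2.3.3, numpy 2.4.6). A prior count of 2 was used for lists and thresholds and none for single genes. No count model was fitted. Names came from the FPKM files for 9 members and from a gene name table for FOS. Genes named beyond the 10 are the 3 farthest from 0 in each of 6 lists, among those with at least 100 counts, except 1 gene that is not reported here. Others, chosen after their values were seen, are those needed for a small count, EGR2, EGR3 and EGR4, and ATF3, BACH1, NFE2, NFE2L1, TFRC, HBG1, MAPK8, MAPK9, SRF, FBXW7, COP1, NAB2 and the genes at 0. BATF2, SGK1, GADD45B and MAPK10, with fewer than 100 counts in both libraries, were also named because their ratios passed 2-fold. The members and lists were chosen with earlier results of these data known, and the ratios within a library, the bins of count and the searched letters after the values were seen. Odds ratios within a library have exact conditional 95% intervals. Positions and overlaps are from GENCODE release 29, which holds 58254 of the 61806 identifiers. Only the steps for ratios and intervals were tested on simulated libraries. These held counting error alone, as the intervals assume, and no spread between cultures. Alternatives were other scalings, prior counts, minimum counts and thresholds, the FPKM values, and sums with overlapping genes.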

Additional observations from a re-analysis of the deposited data

How the results depend on the processing

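No paired analysis was possible because there is just 1 library of each kind, and none could be left out. Under the alternatives 49 values of single members stayed inside the counting interval and 2 left it without a turn of sign, both with log2(FPKM + 1): JUN to 1.09 and MAFF to -0.47. That pseudocount is large beside their FPKM and shrinks their ratio by construction. The number of members 2-fold higher was 2 with total counts, with upper quartile scaling and at 1.5-fold (EGR1 joined JUN), and 2 were lower at 1.5-fold (JUND and MAFF). Under the other alternatives these numbers were 1 and 0. Over all 18123 genes kept, 1393 were 2-fold higher with total counts and 1367 with upper quartile scaling. At 1.5-fold, 2506 of them were higher and 2065 lower. FOSL2 turned to -0.005 with DESeq2 size factors, inside its interval. The medians of the members and of the 6 lists stayed within the range of order statistics that holds the median, and that of the members ran from 0.06 to 0.14. That of the AP-1 targets ran from -0.08 to 0.08.

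Numbers over all genes, 1290 higher and 876 lower, moved to 387 and 361 with at least 100 counts, to 3544 and 1811 with no minimum, to 2506 and 2065 at 1.5-fold, to 566 and 345 at 3-fold, to 547 and 350 with the whole interval past 2-fold, to 199 and 153 with log2(FPKM + 1), and to 348 and 298 with log2(FPKM + 0.1). The FPKM values also limit the genes to 13924, and over those genes the main ratio alone gave 397 higher and 355 lower. Depth limits FOS most, and the spread between cultures is unknown for every gene.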

Other observations

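Letters of known sites were searched after the ratios had been seen, in the RefSeq windows of 11381 genes with enough counts, whose median log2 ratio was -0.01. Apart from the members, 373 genes had the CRE letters TGACGTCA that JUND and MAFF carry, and their median was -0.002, with 3.49% past 2-fold upward and 2.95% downward. The 220 genes with the variant TGACATCA of the JUN promoter had a median of -0.006, with 7.73% higher and 5.45% lower. For 456 genes with the AP-1 letters TGACTCA the median was 0.06, with 7.46% higher and 5.26% lower, beside 5.27% and 3.65% over all genes with a window. The 158 genes with a CArG box had a median of -0.001, with 6.33% higher and 2.53% lower. For 953 genes with the TATA letters TATAAA, found in front of JUNB and FOS, the median was 0.03, with 8.92% higher and 3.88% lower, the largest share higher of the 7 motifs searched. For 1860 genes with the EGR site GCGNGGGCG, found in front of EGR1, it was -0.06, with 4.41% higher and 3.98% lower. The 1787 genes with TGACNNNGC, the core of the antioxidant response element, had a median of 0.009, with 5.54% higher and 3.75% lower. None of these medians differed from that of all genes with a window by as much as 0.1, and no test was run. Over all genes kept, the share 2-fold higher was 19.1% at mean scaled counts of 8 to 16 and 1.79% at 1024 to 2048. The motif sets were not matched for count level.

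Of the genes within 3000 bases of a member that do not overlap it, 4 had over 100 counts in a library. CCDC85B, within 3000 bases of FOSL1 on the opposite strand, had 2060 counts with DMSO and 886 with L1 (log2 ratio -1.004, -1.12 to -0.89). STX10, within 3000 bases of IER2 on the opposite strand, had 1085 and 597 counts (-0.65, -0.80 to -0.50). MAFG-DT, beside MAFG, had 136 and 155 counts (0.40, 0.06 to 0.74). TMEM184B, beside MAFF on the opposite strand, had 1723 and 1206 counts (-0.30, -0.41 to -0.19). The ratio of MAFG-DT was near that of MAFG, and TMEM184B lay below 0 as MAFF did, while those of CCDC85B and STX10 lay below those of FOSL1 and IER2.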
